A study of Mus musculus with 15 samples.

Results

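Anxa10, Vsig1, Psca, Capn8, Capn9 and Sult1c2 are 6 genes known for their expression in the surface epithelium of the stomach, and they were followed by their gene symbols through every transcriptome of a mouse stomach development series. They are 6 of 44788 gene symbols in the deposited tables, each with 1 entry, and all 6 were among the 16902 symbols that reached 1 FPKM (fragments per kilobase of transcript, relative to the mapped reads of the library) in at least 1 sample. The series holds 15 transcriptomes of whole stomachs from C57BL/6 mice, an inbred strain with no engineered allele or treatment in the labels, with 1 transcriptome per time point. The time points were the 7 daily samples from E12.5 to E18.5 before birth (fetal, n = 7), D1, D3, D5, W1 and W2 after birth (D1 to W2, n = 5), and W3, W6 and W8 (W3 to W8, n = 3), where E is embryonic day, D postnatal day and W postnatal week. Because no time point had a second transcriptome, the time points of a period served as its replicates, and the spread within a period includes change with age. The study reports that stomachs up to W2 were taken without regard to sex and later ones from males. It also reports pooling several stomachs per replicate at the earlier fetal ages and single stomachs later. Sex and pooling thus cannot be told apart from age.

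The glandular stomach is lined by a sheet of surface mucous cells, also called pit or foveolar cells, which secrete mucus and trefoil peptides onto the epithelium and are replaced continuously from progenitors in the gland isthmus. In rodents the upper part of the organ, the forestomach, is lined by a stratified squamous epithelium instead. ANXA10 is a calcium-dependent phospholipid-binding annexin, VSIG1 is a junctional adhesion protein of the immunoglobulin superfamily, PSCA is a small surface protein of the Ly6 family held in the membrane by a lipid anchor, CAPN8 and CAPN9 are calcium-activated cysteine proteases that work together as the gastrointestinal calpain complex of surface mucous cells, and SULT1C2 is a cytosolic sulfotransferase.

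The genes lay at separate places in the genome (GRCm38, positions counted from 1). Anxa10 spanned chr8:62057042-62123193 on the minus strand and Capn9 chr8:124576061-124618731 on the plus strand. Psca spanned chr15:74714839-74717065 and Capn8 chr1:182564814-182632743, both on the plus strand. Vsig1 spanned chrX:140907515-140939472 on the plus strand and Sult1c2 chr17:53829637-53845958 on the minus strand. Promoter windows of 300 bases, from 250 bases before to 50 bases after the start that RefSeq annotates (GRCm38.p6), were available for 5 of the 6 genes, all but Psca. That start was the one in the files for Anxa10 and Sult1c2, and it lay 93 bases inside the gene span above for Vsig1, 193 for Capn8 and 50 for Capn9, so motif distances are from the RefSeq start. The windows of Anxa10 and Vsig1, the pair with the earliest RNA, and of Capn8 and Capn9, whose proteins form 1 complex, are shown because the ages at which their RNA appeared differed. Capitals mark motif matches, from the first base of the window at 250 bases before the start, each read 5′ to 3′ on the strand of the gene. The windows were chr8:62123144-62123443 (minus strand), chrX:140907358-140907657 (plus strand), chr1:182564757-182565056 (plus strand) and chr8:124575861-124576160 (plus strand), in that order.
Anxa10: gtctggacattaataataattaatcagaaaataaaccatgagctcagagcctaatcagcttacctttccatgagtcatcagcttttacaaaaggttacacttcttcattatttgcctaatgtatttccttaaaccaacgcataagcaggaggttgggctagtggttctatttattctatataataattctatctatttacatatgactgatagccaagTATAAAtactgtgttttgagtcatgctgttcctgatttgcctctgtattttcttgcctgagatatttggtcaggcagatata
Vsig1: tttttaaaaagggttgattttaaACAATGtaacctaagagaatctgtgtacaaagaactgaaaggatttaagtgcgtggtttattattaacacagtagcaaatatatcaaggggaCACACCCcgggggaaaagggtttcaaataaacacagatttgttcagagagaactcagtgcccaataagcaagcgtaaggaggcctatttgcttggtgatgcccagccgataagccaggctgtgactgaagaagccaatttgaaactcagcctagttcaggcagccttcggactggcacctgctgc
Capn8: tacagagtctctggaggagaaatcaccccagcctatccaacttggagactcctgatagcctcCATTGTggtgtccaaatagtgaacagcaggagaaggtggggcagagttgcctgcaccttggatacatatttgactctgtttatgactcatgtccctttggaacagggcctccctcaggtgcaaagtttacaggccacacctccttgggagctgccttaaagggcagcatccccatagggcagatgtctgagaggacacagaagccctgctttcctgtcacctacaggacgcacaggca
Capn9: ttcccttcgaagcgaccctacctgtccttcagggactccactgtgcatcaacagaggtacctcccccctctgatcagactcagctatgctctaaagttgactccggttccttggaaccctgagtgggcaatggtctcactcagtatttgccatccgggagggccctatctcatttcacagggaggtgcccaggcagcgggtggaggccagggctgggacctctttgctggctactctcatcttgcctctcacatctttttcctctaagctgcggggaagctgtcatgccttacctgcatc

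These 6 short motifs were searched on both strands: TATAAA for the core promoter box, AGATAA for GATA proteins, TGTTTAC for forkhead proteins, CACACCC for KLF proteins, ACAATG for SOX proteins and AGGAAG for ETS proteins. No match overlapped a match to another motif. Anxa10 held a core promoter box that began 32 bases before the start, a match found in 13.6% of the 32851 promoters of the table. Vsig1 held a KLF motif 135 bases and a SOX motif 227 bases before the start, against 7.95% and 12.6% of all promoters. Capn8 held a SOX motif on the opposite strand 188 bases before the start, and the Capn9 window held none of the 6 motifs. Sult1c2, at chr17:53845909-53846208, held an ETS motif on the opposite strand 65 bases before the start, which 35.4% of all promoters also held. The GATA and forkhead motifs, in 11.2% and 3.65% of all promoters, had no match in any of the 5 windows. The SOX motif, in Vsig1 and Capn8, was the one match that 2 of the 5 windows held.

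The stomach identity of the libraries was examined with marker genes. Markers of surface mucous cells (9 of 10 listed genes in the files) summed to 247.2 FPKM at E12.5, to between 9271 and 58662 FPKM from D1 to W2 and to between 114036 and 183688 FPKM from W3 to W8, and Tff1, a trefoil peptide of these cells, reached 112832 FPKM at W6. At E12.5 the sum was mainly Tff1 (152.9 FPKM), Gkn2 (40.9) and Gkn1 (34.8). These are among the late abundant genes whose common early share is described below, so the E12.5 sum is given without a claim of expression. Single marker genes of other organs set D1, D3 and E15.5 apart, and low squamous markers set W8 apart. Alb, the albumin gene of hepatocytes, was 460.5 FPKM at D1 and at most 65.4 FPKM in any other sample. Ctrb1, a pancreatic protease gene, was 84.5 FPKM at D3 and 39.3 FPKM at E15.5 and at most 12.6 FPKM elsewhere. Other genes of the same marker lists did not all go with Alb and Ctrb1. The hepatocyte list summed to 1178 FPKM at D1 and 2401 at W6, where Apoa1 was 2270. The pancreatic list summed to 148.8 FPKM at D3, 56.55 at E15.5 and 112.8 at W6. The summed squamous markers were 23.7 FPKM at W8 after 2014 FPKM at W6. Relative depth ranged from 0.702 at E16.5 to 1.17 at W6, with E12.5 set to 1.

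**Figure D1:**
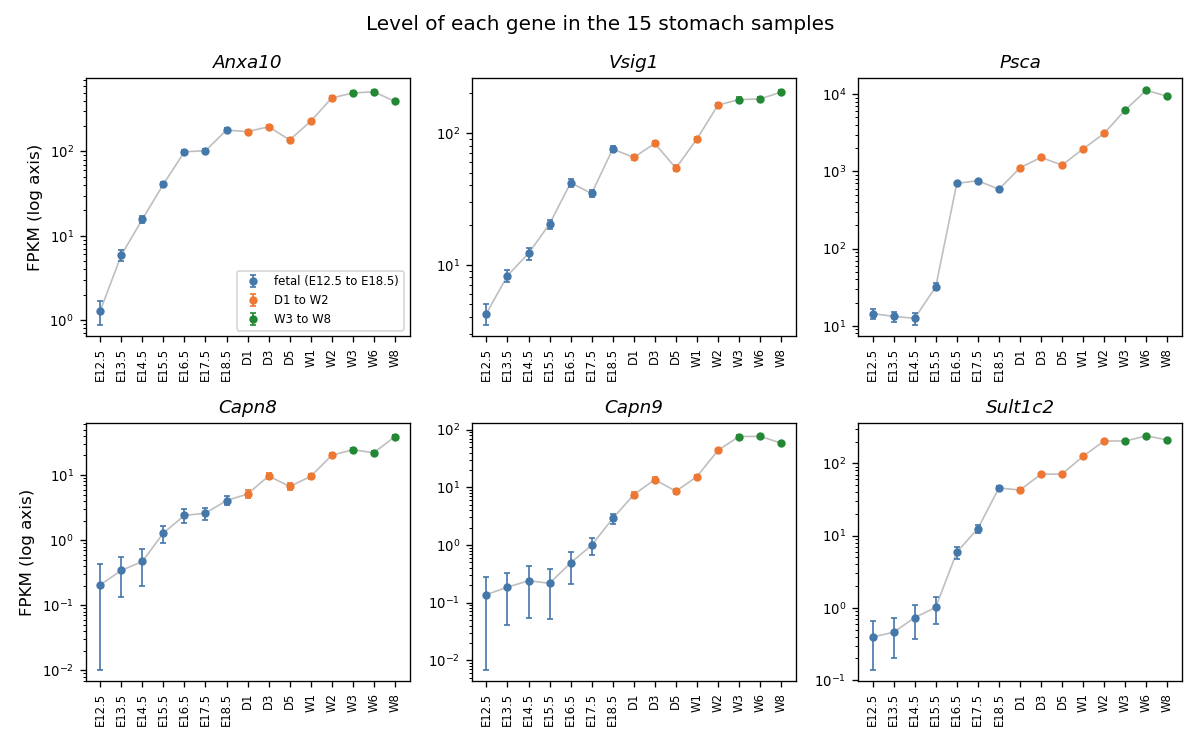
FPKM of the 6 genes (log axes, which differ between panels) in the 15 stomach transcriptomes, with the lower and upper counting bounds given in the files as bars and the periods in colour; a bound of 0 is drawn at a small fraction of the value. Each gene had its lowest sample before birth and its highest at W6 or W8, and Psca stepped from 32.0 FPKM at E15.5 to 699.3 FPKM at E16.5.

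Every one of the 6 genes had its lowest level before birth and its highest at W6 or W8, but the ages at which they came up differed. Anxa10 and Vsig1 were already higher at E13.5 than at E12.5, with counting bounds apart. Psca was 21.8-fold higher at E16.5 than at E15.5, and Sult1c2 went up between E15.5 and E18.5. As deposited, Capn8 passed 1 FPKM at E15.5 and Capn9 did so last, at E18.5. Within the fetal period 5 of the 6 genes rose with embryonic day, against 14.3% of all genes, and from D1 to W8 5 of the 6 rose with age, against 2.79% of all genes. Whole-stomach RNA does not show which cells held it, and more surface epithelial cells and more RNA per cell cannot be told apart.

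Anxa10 read 1.29, 5.90, 15.7, 40.8, 99.2, 102.1 and 179.5 FPKM from E12.5 to E18.5 in order. The value was higher at each day than at the day before, and the counting bounds of consecutive days were apart at 5 of the 6 steps, the exception being E16.5 to E17.5. After birth Anxa10 was 172.1 FPKM at D1, 196.3 at D3, 137.2 at D5, 228.1 at W1 and 431.9 at W2, and it was 493.1 FPKM at W3, 511.9 at W6 and 392.0 at W8. The D1 to W2 samples overlapped with E18.5, since D1 and D5 lay below it. By rank among all symbols Anxa10 moved from 13579 at E12.5 to 548 at E18.5 and 223 at W6.

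Vsig1 followed the same course from a higher start. It read 4.26, 8.27, 12.2, 20.4, 41.8, 34.8 and 75.5 FPKM over the 7 fetal days, 65.1, 83.2, 54.0, 89.9 and 162.5 FPKM at D1, D3, D5, W1 and W2, and 178.9, 181.0 and 203.8 FPKM at W3, W6 and W8. As in Anxa10, D1 and D5 lay below E18.5, while every sample from W3 to W8 lay above every sample from D1 to W2. Across the 15 samples Anxa10 and Vsig1 were the most similar pair of the 6, with a Pearson correlation of log2(FPKM + 1) of 0.981, and Anxa10 and Capn9 were the least similar at 0.825. These 15 points share their libraries and a common trend with age, so the correlations describe the series only.

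Psca, which encodes prostate stem cell antigen, was the most abundant of the 6 in every sample from E16.5 on. On the first 4 embryonic days it read 14.43, 13.23, 12.53 and 32.03 FPKM. From E16.5 to E18.5 it read 699.3, 759.6 and 586.3 FPKM, so the step between E15.5 and E16.5 was 21.8-fold between single libraries. Of the 16902 genes, 14 including Psca had a step at least as large at that interval on the log2(FPKM + 1) scale. A rise of 1 or more on that scale, a doubling, was seen for 3 of the 6 genes at this interval (Anxa10, Psca and Sult1c2) against 2.96% of all genes, and Vsig1 was 2.05-fold higher in FPKM. The interval was chosen after its values were seen, and it has no replicate check. After birth Psca was 1112 FPKM at D1, 1517 at D3, 1208.5 at D5, 1955 at W1 and 3109 at W2, all above every fetal sample. It then was 6238 FPKM at W3, 11242 at W6 and 9408 at W8, all above every earlier sample, and ranked 13 among all symbols at W6 and W8.

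The first 3 Psca values must be read beside those of other genes that were abundant late. Of the 18 genes with a mean of at least 5000 FPKM from W3 to W8, the 9 that are not mitochondrial all stood between 0.107% and 0.179% of that mean at E12.5, Psca at 0.161%, and they included Pgc, a pepsinogen gene of chief cells, at 0.114% and Gkn1 at 0.151%. At E14.5 Psca stood at 0.14% and at E15.5 at 0.357%. Sult1c2 and Capn9 stood at 0.181% and 0.195% of their own W3 to W8 means at E12.5, Anxa10 at 0.277%, Capn8 at 0.723% and Vsig1 at 2.27%. What set this common share in the early libraries was not tested, so the level of Psca before E15.5 and those of Sult1c2 and Capn9 at E12.5 are given without a claim of expression.

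Sult1c2 was at 0.394, 0.459, 0.732 and 1.02 FPKM from E12.5 to E15.5, where the counting bounds of consecutive days overlapped. It then read 5.90 FPKM at E16.5 and 45.6 at E18.5, with a 2.12-fold higher value at E17.5 than at E16.5, and the bounds were apart at each of these steps. The gene was 42.7 FPKM at D1, 70.7 at D3, 71.2 at D5, 125.1 at W1 and 204.4 at W2, and it stayed near that level with 203.3 FPKM at W3, 240.0 at W6 and 211.1 at W8. As deposited, 50% of the maximum was first reached at W1 in Sult1c2, at W2 in Anxa10, Vsig1, Capn8 and Capn9, and at W3 in Psca. This order depended on the scaling. With median-ratio factors Sult1c2 reached that level at W2 together with Anxa10 and Vsig1, and scaled to the general epithelial sum Anxa10 and Vsig1 reached it at E18.5, before Sult1c2 at D5. Psca was the last of the 6 in all 3 scalings. The epithelial scaling also moved the highest sample of Anxa10 to W2 and that of Capn9 to W3.

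The 2 calpain genes had the lowest mean FPKM of the 6 in each of the 3 periods, and they differed in timing. Capn8 read 0.206, 0.344, 0.471, 1.29, 2.40, 2.61 and 4.07 FPKM over the fetal days, with the lower counting bound at 0 at E12.5. It was first at 1 FPKM or more at E15.5. Capn9 stayed between 0.137 and 0.239 FPKM from E12.5 to E15.5, read 0.488 FPKM at E16.5 and 0.991 at E17.5, and was first at 1 FPKM or more at E18.5, with 2.88 FPKM. Its counting bounds at E17.5, 0.656 to 1.327 FPKM, spanned that cut. Scaled to the general epithelial sum, Capn8 was first at 1 or more at E12.5 and Capn9 at E17.5. In all 3 scalings Capn9 was the last of the 6 genes to reach 1. After birth the order of the 2 genes turned over: at D1 Capn8 was 5.12 FPKM and Capn9 7.46 FPKM, with counting bounds of 4.42 to 5.82 and 6.55 to 8.36 FPKM that did not overlap. Capn8 then read 9.68, 6.68, 9.56 and 20.1 FPKM at D3, D5, W1 and W2, and Capn9 read 13.6, 8.54, 15.3 and 43.7 FPKM. From W3 to W8 Capn8 was 24.6, 22.0 and 39.1 FPKM and Capn9 was 75.9, 76.5 and 58.5 FPKM, so Capn9 was above Capn8 in every sample after birth and below it in every fetal sample. In both genes all D1 to W2 samples lay above all fetal samples, and all W3 to W8 samples lay above all D1 to W2 samples.

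**Figure D2:**
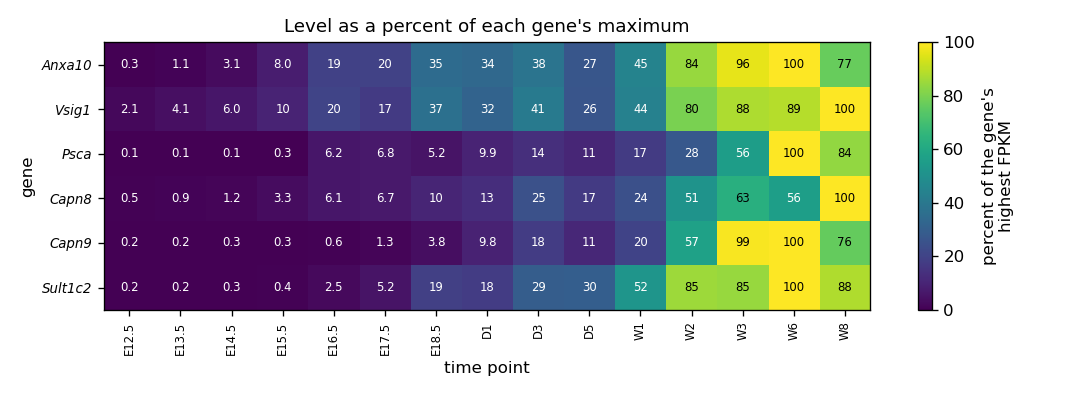
FPKM as a percent of each gene's own maximum, for the 6 genes (rows) at the 15 time points (columns), from 0 in dark to 100 in bright. Anxa10 and Vsig1 stood at 35.1% and 37.0% of their maximum at E18.5, where Psca stood at 5.22% and Capn9 at 3.76%.

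Expressed as a percent of the maximum of each gene, the genes stood at different points of their course just before birth. At E18.5 Vsig1 stood at 37.0%, Anxa10 at 35.1%, Sult1c2 at 19.0%, Capn8 at 10.4%, Psca at 5.22% and Capn9 at 3.76%. The neighbours Vsig1 and Anxa10 in this order were within 2 percentage points of each other, as were Psca and Capn9. At W2 the order had changed: Sult1c2 stood at 85.2%, Anxa10 at 84.4% and Vsig1 at 79.7%, Capn9 at 57.1%, Capn8 at 51.4% and Psca at 27.7%.

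The increase was not even from sample to sample. Between D3 and D5, 5 of the 6 genes were lower (0.627-fold in Capn9 to 0.796-fold in Psca), against 46.2% of all genes, and Sult1c2 was 1.01-fold. The 5 lower genes had counting bounds apart, which was not counted over all genes. The summed FPKM of 10 general epithelial genes, such as Epcam and Cdh1, was 2936 at D3 and 2157 at D5, and that of 6 smooth muscle genes was 8756 at D3 and 10483 at D5. The part of a different tissue mix in the D5 library was not tested. When FPKM was scaled to a constant sum of the general epithelial genes, 4 of the 6 genes were still lower at D5: Anxa10 was 195.0 at D3 and 185.5 at D5, Vsig1 82.7 and 73.0, Capn8 9.62 and 9.04, and Capn9 13.52 and 11.55. Psca, at 1508 and 1635, and Sult1c2, at 70.2 and 96.3, were higher at D5. From W6 to W8, 4 of the 6 genes were lower (Anxa10 0.766-fold, Psca 0.837-fold, Capn9 0.765-fold and Sult1c2 0.88-fold), against 34.3% of all genes. Vsig1 and Capn8 were 1.13-fold and 1.78-fold higher. The 4 lower genes had counting bounds apart, again without a count over all genes. From E18.5 to D1, Anxa10, Vsig1 and Sult1c2 were lower, with bounds apart in Vsig1 only (0.863-fold), where 57.3% of all genes were lower.

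The trend before birth was tested as a slope of log2(FPKM + 1) per embryonic day over the 7 fetal samples (limma, Benjamini-Hochberg adjustment over 16902 genes, threshold 0.01). By this test 14.3% of all genes rose and 25.0% fell. Of the 6 genes, 5 rose. The steepest was Psca, at 1.18 per day (SE 0.230, adjusted p = 0.00495), followed by Anxa10 at 1.05 (SE 0.0893, adjusted p = 0.000303). Sult1c2 gained 0.84 per day (SE 0.129, adjusted p = 0.00184), Vsig1 0.61 (SE 0.0478, adjusted p = 0.000254) and Capn8 0.37 (SE 0.0307, adjusted p = 0.000294). Capn9, at 0.25 per day (SE 0.0607, adjusted p = 0.0114), did not pass, although its highest fetal values were at E17.5 and E18.5. With a pseudocount of 0.1 in place of 1, which gives low levels more weight, the slope of Capn9 was 0.56 per day (adjusted p = 0.00415). The slope of Anxa10 exceeded those of 99.6% of all genes. Without E12.5, E13.5, E17.5 or E18.5 in turn, the Psca slope no longer passed, with values from 1.09 to 1.39 per day, and without E18.5 the Sult1c2 slope was 0.67 per day (adjusted p = 0.0102).

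The same fetal interval saw a rise in surface mucous markers and in general epithelial markers. Of the 9 surface mucous genes tested, 7 rose and none fell, with a median slope of 0.72 against -0.03 over all genes. Of the 10 general epithelial genes 8 rose, with a median slope of 0.29. Of all genes 14.3% rose. The sum of the general epithelial genes was 593.8 FPKM at E12.5 and 2925 at E18.5. Scaled to a constant sum of these genes, 5 of the 6 genes still rose: Anxa10 by 0.73 per day (SE 0.0774, adjusted p = 5.11e-05), Psca by 0.80 (SE 0.218, adjusted p = 0.00892), Sult1c2 by 0.66 (SE 0.132, adjusted p = 0.00167), Vsig1 by 0.26 (SE 0.0490, adjusted p = 0.00138) and Capn8 by 0.23 (SE 0.0374, adjusted p = 0.000492). That scaling lowered the median slope of all genes from -0.03 to -0.38. Under it fewer of all genes rose than as deposited and more fell, with the counts given in the closing section.

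After birth the slope was taken per doubling of age over the 8 samples from D1 to W8. Of all genes, 2.79% rose and 16.8% fell, and the median of all genes was -0.10 per doubling. Psca gained 0.64 per doubling (SE 0.0854, adjusted p = 0.00295) and Capn9 0.62 (SE 0.102, adjusted p = 0.0045). Capn8 gained 0.45 (SE 0.0636, adjusted p = 0.00326), Sult1c2 0.45 (SE 0.0555, adjusted p = 0.0026) and Vsig1 0.33 (SE 0.0659, adjusted p = 0.00697). Anxa10, at 0.32 (SE 0.0764, adjusted p = 0.013), did not pass. This result rested on single libraries: the number of the 6 genes that passed was 5 with all samples, 0 without D3 or without W6, and 1 without W8, and the number of all genes that rose was 471 with all samples, 83 without D3, 21 without W6 and 24 without W8. The slopes themselves kept their sign in each of these fits. Scaled to the general epithelial sum, Psca (0.42, SE 0.0630, adjusted p = 0.00216), Capn9 (0.41, SE 0.0643, adjusted p = 0.00229) and Sult1c2 (0.23, SE 0.0536, adjusted p = 0.00566) still passed, and Anxa10 (0.10, SE 0.0458, adjusted p = 0.0733), Vsig1 (0.12, SE 0.0509, adjusted p = 0.059) and Capn8 (0.25, SE 0.0677, adjusted p = 0.0104) did not. Fewer of all genes rose under that scaling and more fell, as counted in the closing section.

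**Figure D3:**
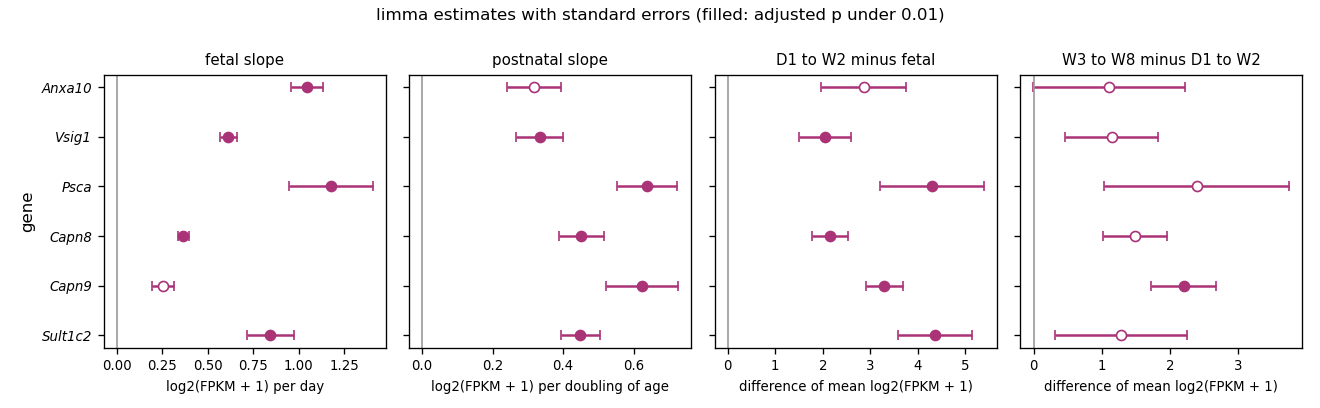
limma estimates (points) with standard errors (bars) for the 6 genes in the 4 comparisons, on the log2(FPKM + 1) scale per embryonic day, per doubling of postnatal age, or as a difference of period means; filled points passed an adjusted p of 0.01. All 24 estimates are above 0, and 16 of them are filled.

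Between the periods, D1 to W2 against fetal had 10.8% of all genes higher and 30.6% lower, and 5 of the 6 genes were higher. Sult1c2 averaged 9.52 ± 16.53 FPKM (SD, n = 7) before birth and 102.8 ± 64.1 FPKM (SD, n = 5) from D1 to W2, a difference of 4.36 on the log2(FPKM + 1) scale (SE 0.783, adjusted p = 0.000585). Psca averaged 302.5 ± 358.4 and 1780.5 ± 812.2 FPKM, a log2 difference of 4.29 (SE 1.09, adjusted p = 0.00437). Capn9 averaged 0.733 ± 0.990 and 17.7 ± 14.9 FPKM, with a log2 difference of 3.29 (SE 0.385, adjusted p = 9.19e-05). Capn8 went from 1.63 ± 1.45 to 10.2 ± 5.84 FPKM (log2 difference 2.15, SE 0.383, adjusted p = 0.00055) and Vsig1 from 28.2 ± 25.0 to 90.9 ± 42.5 FPKM (log2 difference 2.05, SE 0.543, adjusted p = 0.00559). Anxa10, at 63.5 ± 66.1 and 233.1 ± 116.0 FPKM, had a log2 difference of 2.86 (SE 0.893, adjusted p = 0.0137) and did not pass. In 3 of the 6 genes (Psca, Capn8 and Capn9) every D1 to W2 sample lay above every fetal sample, against 6.63% of all genes. Vsig1 did not pass without E13.5, E14.5, E15.5, D3, W1 or W2, with adjusted p from 0.0104 to 0.0192, and Psca did not without E15.5, W1 or W2, with adjusted p from 0.0101 to 0.0137. Of the libraries that Alb or Ctrb1 set apart, leaving out D1 left 5 of the 6 genes higher, leaving out D3 left 4 and leaving out E15.5 left 3. The counts over all genes in these fits are not given here.

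From D1 to W2 to W3 to W8, 2.57% of all genes were higher and 28.9% lower, and the median of all genes was -0.42. Of the 6 genes, 1 was higher. Capn9 averaged 70.3 ± 10.2 FPKM (SD, n = 3) from W3 to W8, a log2 difference of 2.20 (SE 0.480, adjusted p = 0.00239). Without W6 the difference in Capn9 was 2.14 (adjusted p = 0.016). Psca averaged 8962.5 ± 2531.9 FPKM, 5.03-fold the mean from D1 to W2, and its log2 difference of 2.39 (SE 1.36, adjusted p = 0.149) did not pass. The fit has 1 spread for all 3 periods, and the fetal samples of Psca ran from 12.53 to 759.6 FPKM. Capn8 (28.6 ± 9.23 FPKM, log2 difference 1.49, SE 0.478, adjusted p = 0.0186), Sult1c2 (218.1 ± 19.3 FPKM, 1.28, SE 0.977, adjusted p = 0.278), Vsig1 (187.9 ± 13.8 FPKM, 1.14, SE 0.677, adjusted p = 0.166) and Anxa10 (465.7 ± 64.5 FPKM, 1.10, SE 1.11, adjusted p = 0.414) did not pass either. In 4 of the 6 genes, Vsig1, Psca, Capn8 and Capn9, every W3 to W8 sample lay above every D1 to W2 sample, against 4.9% of all genes.

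The balance of rising and falling genes depended on the scaling of the libraries. With FPKM divided by median-ratio factors, the genes that rose and fell numbered 3056 and 3059 for the fetal slope (2411 and 4228 as deposited) and 1331 and 1132 for the postnatal slope (471 and 2834). For D1 to W2 against fetal they were 2966 and 2470 (1820 and 5170), and for W3 to W8 against D1 to W2 2055 and 1343 (435 and 4877). In the last comparison that scaling moved the median of all genes from -0.42 to -0.03. The 10 most abundant genes held 11.2% of all FPKM at E14.5 and 53.2% at W6. Under both scalings all 6 genes had positive estimates in all 4 comparisons.

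Each gene was set among its relatives, whose lists were chosen with results of these data known. Among 12 annexins, Anxa10 held 0.168% of the summed FPKM at E12.5 and ranked 11, and it held 43.3% and ranked first at W8. Of the 11 other annexins tested, 7 rose with embryonic day, against 14.3% of all genes. After birth, the one other annexin that rose was Anxa4 (0.21 per doubling, SE 0.0403, adjusted p = 0.00645), while Anxa1 (-0.55), Anxa6 (-0.44), Anxa8 (-0.85) and Anxa9 (-0.63) fell. Of all genes 2.79% rose and 16.8% fell after birth. Anxa1 was 1009 FPKM at E16.5 and 26.9 FPKM at W8, while Anxa10 was 99.2 and 392.0 FPKM.

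Among 13 calpain protease genes, Capn9 held 0.0864% of the summed FPKM at E12.5 and 24.8% at W8, where it ranked first, and Capn8 held 0.13% and 16.54% and ranked 2 at W8. Of the 13 other genes of the calpain list tested, which includes the small subunits and the inhibitor Cast, the one that rose after birth was Capn13 (0.59 per doubling, SE 0.0703, adjusted p = 0.00249), where 2.79% of all genes rose. Capn13 read 0.0529 FPKM at E12.5, 3.43 at E18.5, 17.1 at W2 and 28.8 at W8, close to the levels of Capn8. Capn6, a calpain that lacks the catalytic cysteine, fell after birth (-0.41, SE 0.0522, adjusted p = 0.00279) from 25.4 FPKM at D1 to 5.44 at W8. Capn2, the neighbour of Capn8 on chromosome 1 and a widely expressed calpain, was 48.3 FPKM at E12.5 and 21.5 FPKM at W8. The small subunit Capns2 was 40.9 FPKM at D1 and 0.225 FPKM at W8, a sample in which Capn8 and Capn9 were at 39.1 and 58.5 FPKM. Capns1, the other small subunit of the list, was 293.2 FPKM at D1 and 207.1 FPKM at W8.

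Sult1c2 held 1.93% of the summed FPKM of 10 sulfotransferases at E12.5 and 67.5% at W8, and it ranked first at D3 and in every later sample. Its neighbour Sult1c1, a close relative, was listed at 0 in 14 of the 15 samples and at 0.0425 FPKM at E18.5, and reads shared between the 2 genes could have been assigned to either. Papss2 and Papss1 make the sulfate donor that sulfotransferases use. Papss2 rose with embryonic day (0.41, SE 0.0496, adjusted p = 0.000786) and after birth (0.32, SE 0.0542, adjusted p = 0.00503), from 2.84 FPKM at E12.5 to 56.6 at W8. Papss1 fell after birth (-0.16, SE 0.0318, adjusted p = 0.00691) and went from 54.8 FPKM at E12.5 to 22.3 at W8. Sult1d1 also rose after birth (0.34 per doubling, SE 0.0593, adjusted p = 0.00522), to 39.5 FPKM at W8.

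Vsig1 held 3.35% of the summed FPKM of 14 VSIG and junctional immunoglobulin genes at E12.5 and 28.6% at W8, and it was second in the list from E18.5 on. Vsig2, another gene of the list, was higher than Vsig1 in both of these samples: 7.64 FPKM at E12.5 and 371.1 at W8. Vsig2 rose with embryonic day (0.79, SE 0.0429, adjusted p = 0.000158) and after birth (0.22, SE 0.0471, adjusted p = 0.00925). Gpa33, an antigen of intestinal epithelium, was 32.0 FPKM at D3 and 8.65 at W8, and Vsig8 and Vsig10l fell after birth (-0.49 each, adjusted p = 0.0097 and 0.00318).

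**Figure D4:**
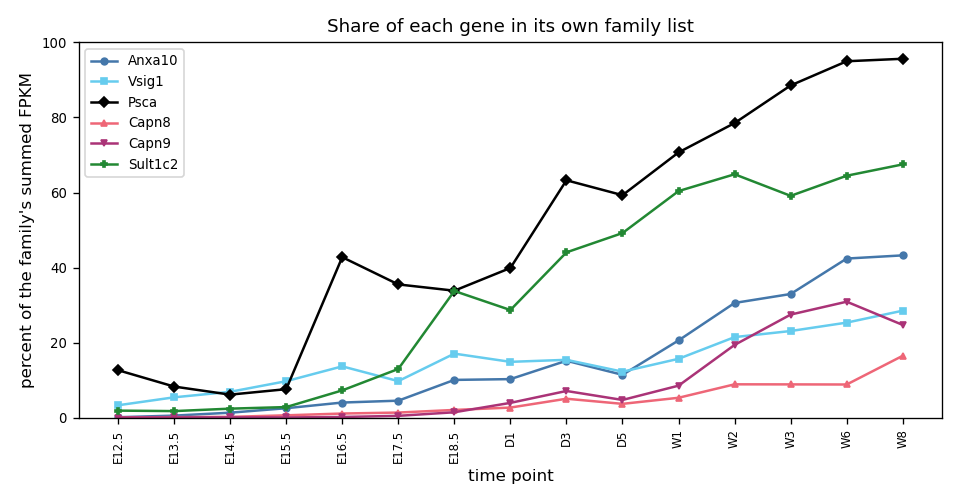
Share of each of the 6 genes in the summed FPKM of its own family list (percent, linear axis) at the 15 time points. At W8 Psca held 95.6% of 17 Ly6 genes, Sult1c2 67.5% of 10 sulfotransferases, Anxa10 43.3% of 12 annexins, Vsig1 28.6% of 14 junctional immunoglobulin genes, and Capn9 and Capn8 24.8% and 16.54% of 13 calpains.

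Psca belongs to the Ly6 family, several of whose genes lie near it on chromosome 15 and are expressed in squamous epithelium. At E16.5, the sample in which Psca stepped up, the summed FPKM of 10 forestomach squamous markers was 8791, against 1955 at E15.5, and Krt13, a keratin of stratified epithelium, was 3976 against 1016. Ly6d, a Ly6 gene of squamous cells, was 109.6 FPKM at E15.5 and 485.1 at E16.5, and Slurp1, which lies near Psca, was 5.03 and 60.2 FPKM. In the single W8 library Psca and these squamous-associated relatives lay far apart. Psca was 9408 FPKM at W8, while Ly6d was 40.8, Slurp1 20.2 and Lypd2 0.534 FPKM, down from 838.6, 240.0 and 220.7 FPKM at D1. At W6, where the squamous sum was 2014 FPKM, Ly6d was 154.1, Slurp1 77.4 and Lypd2 3.43 FPKM. Slurp1 had been lower at W1, at 36.7 FPKM, than at W6. The slopes of Ly6d (adjusted p = 0.011) and Slurp1 after birth did not pass. Of the 13 other Ly6 genes tested, 2 rose after birth and 2 fell, against 2.79% and 16.8% of all genes. Ly6e rose (0.33 per doubling, SE 0.0509, adjusted p = 0.00396), from 88.4 FPKM at D1 to 271.3 at W8, as did Ly6a (0.33, SE 0.0660, adjusted p = 0.00725), from 11.2 to 31.0 FPKM, while Lypd2 (-1.13, SE 0.0772, adjusted p = 0.000998) and Ly6h (-0.81) fell. The squamous sum was 23.7 FPKM at W8, so Psca RNA was at 9408 FPKM in a library whose squamous markers were near 0. The part of squamous epithelium in the E16.5 level of Psca was not tested.

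**Figure D5:**
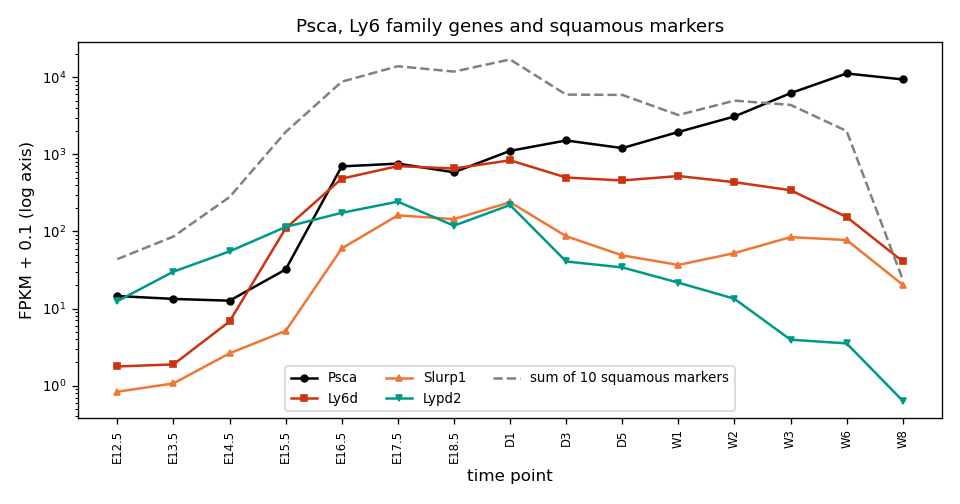
FPKM + 0.1 (log axis) of Psca, of the Ly6 family genes Ly6d, Slurp1 and Lypd2, and of the sum of 10 forestomach squamous markers at the 15 time points. All were higher at E16.5 than at E15.5, and at W8 Psca stood at 9408 FPKM and the squamous sum at 23.7 FPKM.

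Of the genes next to the 6 on their chromosomes, Jrk and Them6 flank Psca most closely. Jrk was 1.27 FPKM and Them6 8.48 FPKM at W8, against 9408 FPKM for Psca. Agt, the angiotensinogen gene next to Capn9, rose before birth (0.74 per day, SE 0.0663, adjusted p = 0.000336) and was 20.2 FPKM at E18.5, 34.7 at W2 and 11.5 at W8, where Capn9 was 58.5 FPKM. Spock3, next to Anxa10, fell before birth (-0.31 per day, SE 0.0442, adjusted p = 0.00138), from 6.80 FPKM at E12.5 to 1.63 at E18.5. Psmd10, next to Vsig1, was 18.8 FPKM at E12.5 and 11.8 at W8.

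By Pearson correlation of log2(FPKM + 1) over the 15 samples, the genes most like Anxa10 were Ociad2 (0.992), Pllp (0.990) and Elovl7 (0.990), and those most like Vsig1 were Rbm47 (0.994), an RNA-binding protein of epithelia, Mfsd6 (0.992) and Cystm1 (0.991). Psca was most like Slc45a3 (0.987), Gsta1 (0.986) and Gm3776 (0.986), of which the last 2 are near-identical copies that may share reads. Capn8 was most like Ano7 (0.994), Pttg1ip (0.990) and A4gnt (0.990), the glycosyltransferase of gland mucins. Capn9 was most like Gsdma2 (0.991), Avil (0.989) and Ptprh (0.989), and its list also held Gkn2 (0.988), a gastrokine of surface mucous cells. Sult1c2 was most like Slc5a5 (0.994), the iodide transporter, Gjb1 (0.993) and Ephx2 (0.993).

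The surface mucous markers gave a reference for the order of the 6 genes. Ctse, a protease of surface mucous cells, read 4.10 FPKM at E12.5, 39.0 at E15.5, 127.0 at E16.5 and 292.1 at E18.5 and rose with embryonic day (1.01, SE 0.0562, adjusted p = 0.000162), a slope next to the 1.05 of Anxa10. Gkn1 and Gkn2 were 251.0 and 356.0 FPKM at E18.5 and 3611 and 5454.5 FPKM at D3, and Capn9 was 2.88 and 13.6 FPKM in the same samples. Muc5ac, the gel-forming mucin of surface cells, stayed between 1.42 and 6.38 FPKM until W1 and was 94.3 FPKM at W2 and 670.7 at W8. At W1 it stood at 4.40 FPKM, where the 6 genes stood at 17.4% (Psca) to 52.1% (Sult1c2) of their maximum. After birth 6 of the 9 surface mucous genes rose and none fell, against 2.79% and 16.8% of all genes. Their median slope was 0.53 per doubling against -0.10 over all genes.

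Among 14 transcription factor genes of the gastric epithelium, 6 rose with embryonic day and none fell, against 14.3% and 25.0% of all genes. The median slope of the 14 genes was 0.15. The 6 included Ehf (0.72 per day, SE 0.0849, adjusted p = 0.00075), Foxq1 (0.50, SE 0.0669, adjusted p = 0.00111) and Klf4 (0.46, SE 0.0462, adjusted p = 0.000469). After birth 1 factor gene rose and 2 fell, against 2.79% and 16.8% of all genes. Gata4 rose (0.23 per doubling, SE 0.0398, adjusted p = 0.00504), and Sox2 (-0.42, SE 0.0787, adjusted p = 0.00619) and Klf5 (-0.31, SE 0.0594, adjusted p = 0.0065) fell.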

How the data were processed

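Per the labels, total RNA of whole C57BL/6 stomachs was sequenced, 1 transcriptome per time point. The methods of the study describe 3 biological replicates per time point and once name liver as the source of RNA; the tables hold 1 column per time point, and stomach markers were abundant. The deposited values are FPKM per gene entry with lower and upper bounds, made by the authors. Their methods name HISAT2 and StringTie on GRCm38, the submitters' processing notes name Bowtie 0.12.2 and FastQC, and the layout is that of Cufflinks, so the software behind the values is uncertain. File starts count from 0, and 1 was added. Read depth was not given, and relative depth was taken from entries whose bounds correspond to 1 fragment; bounds cover counting error only.

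Entries of a symbol were summed. Genes with a maximum of at least 1 FPKM were tested on log2(FPKM + 1), which understates changes of low genes, with limma 3.58.1 in R 4.3.3: a slope over 7 fetal samples, a slope over 8 postnatal samples (a week as 7 days), and 2 contrasts of 3 age periods in 1 fit. Values were adjusted by Benjamini-Hochberg over 16902 genes, with a threshold of 0.01. Tests on simulated data with 100 genes shifted by 3 (log2) over the range recovered 75% for the fetal slope and 88% for the postnatal slope. With a shift of 1.5 they recovered 27% and 37%, so changes of that size were mostly missed in the simulation. The simulated noise was the spread within periods, which includes change with age, so recovery in the real fits may be understated. Other values were computed with Python 3.11.15, NumPy 2.4.6 and pandas 2.3.3.

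The genes named are the 6 genes, listed family, marker and transcription factor genes, the 5 genes most correlated with each of the 6, and the 2 nearest protein-coding neighbours on each side; the late abundant genes, Alb and Ctrb1 as library checks and the intervals between samples that are described were chosen after values were seen. The 6 genes and all lists were chosen with earlier results of these data known. Alternatives were other pseudocounts (0.1 and 5), no filter, median-ratio scaling, scaling to the general epithelial sum, first entries, other periods and leaving out each sample.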

Additional observations from a re-analysis of the deposited data

How the results depend on the processing

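No paired analysis was possible because each time point had 1 transcriptome. All 24 estimates of the 6 genes kept their positive sign under every alternative run. Of the 162 values under other settings, 141 stayed on the same side of the threshold, as did 234 of the 270 with 1 sample left out. Scaled to the general epithelial sum, the genes that rose and fell numbered 514 and 13375 (fetal slope), 101 and 8443 (postnatal slope), 303 and 424 (D1 to W2 against fetal) and 22 and 307 (W3 to W8 against D1 to W2), and of the 6 genes 3 passed for the postnatal slope, 0 for W3 to W8 and 3 were first at 50% of their maximum at W2 or later. Under median-ratio scaling the counts were 1331 and 1132, 2966 and 2470, and 2055 and 1343 for the last 3 comparisons, and 2 of the 6 genes passed for W3 to W8. Without a filter on low values 151 genes rose and 587 fell after birth, with 1 of the 6, and 3 of the 6 passed for D1 to W2. For W3 to W8, 0 of the 6 passed with a pseudocount of 0.1, 2 with 5 and 2 with the study's own RNA phases. The cause of these changes was not tested, beyond the larger number of genes adjusted for without the filter.

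With 1 sample left out, the fetal slope gave 1550 to 2173 genes that rose, 2633 to 3718 that fell and 3 to 5 of the 6 genes. The postnatal slope gave 21 to 459, 39 to 4172 and 0 to 5. For D1 to W2 against fetal, 3 to 6 of the 6 passed. For W3 to W8 against D1 to W2 there were 172 to 578 genes higher, 1375 to 5672 lower and 0 to 2 of the 6, with the low end without W6. With 1 transcriptome per time point, a step between neighbouring ages has counting bounds only.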
